A study of Mus musculus with 10 samples.

Results

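DNA replication and the supply of nucleotides for it were followed through 42 genes, chosen by name from the deposited expression table of 52550 genes. All 42 passed the filter on low values (log2 RPKM, reads scaled to gene length and library size, above 0 in at least 2 libraries), as did 14787 genes in all. Before a cell divides, the origin recognition complex, Cdc6 and Cdt1 load the Mcm2 to Mcm7 helicase onto DNA, and Cdc45, the GINS complex and Mcm10 then switch it on. Polymerases copy both strands while the sliding clamp PCNA holds them in place, ribonucleotide reductase makes the deoxynucleotides, and chromatin factors restore histones and DNA methylation behind the fork. Precursors of dendritic cells divide as they mature, and many of these genes are switched on together by E2F transcription factors as a cell enters S phase.

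RNA came from spleen precursors of conventional dendritic cells (cDCs) of C57BL/6 mice: pre-cDC1, titled DN, and pre-cDC2, titled Ly6C, which give rise to the cDC1 and cDC2 lineages. The wild-type (WT) groups had 3 pre-cDC1 and 2 pre-cDC2 libraries, and so did the CD11c-cre Adam10fl/fl groups (KO), where the CD11c promoter drives Cre, so that a loxP-flanked part of Adam10 is cut in those cells that use the promoter. ADAM10 is a membrane protease, and the series title names its shedding of FLT3L, the growth factor of cDC development. The labels do not say whether WT mice carried Cre or the floxed allele, give no age, and leave unsaid whether each replicate is its own animal, so that p-values measure only the spread between these libraries.

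The libraries held 7862449 to 13177686 reads, as recovered from the deposited values. The members had 3 to 2561 reads each per library, none was at 0, and 10 of their 420 values rested on fewer than 20 reads. Adam10 ranged from -2.29 to 0.13 log2 RPKM in WT pre-cDC1 and from -3.90 to -1.50 in KO pre-cDC1, which overlap. It was 1.76 and 4.53 in WT pre-cDC2 replicates 2 and 3, against 4.24 and 4.11 in the libraries labelled KO pre-cDC2, so the gene-level value was not lower there. A value over the whole gene does not show the deleted part, and every direction given below for KO rests on the label in both cell types. Genes of the cDC1 lineage summed to 1570 to 1940 RPKM in pre-cDC1 and to 229 to 372 in pre-cDC2, and genes of the cDC2 lineage to 45.9 to 227 and to 939 to 1500. Among the 4 pre-cDC2 libraries, WT replicate 2 differed from the rest. Its 8 T cell genes summed to 45.5 RPKM and its 8 NK cell genes to 44.2, against 569 to 927 and 849 to 1010 in the other 3. Its core cDC genes, such as Flt3 and Zbtb46, summed to 409 RPKM against 168 to 238 in those 3. Its cDC2 lineage genes summed to 1500 against 939 to 1080, and its plasmacytoid dendritic cell genes to 937 against 351 to 506. The part of these differences in the results below was not tested. Results that rest on it are given with and without it.

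Members were abundant to different degrees. In WT pre-cDC1 the highest mean level was that of Pcna, the sliding clamp, at 5.44 ± 0.20 log2 RPKM (SD, n = 3), followed by the helicase subunits Mcm3 at 5.15 ± 0.17 and Mcm6 at 4.99 ± 0.21. The library values of neighbours in this order overlap. Lowest were Orc1, the largest subunit of the origin recognition complex, at -0.92 ± 0.10, and Pole, the catalytic subunit of the leading-strand polymerase, at -0.38 ± 1.67. Together the 42 genes took 0.169% ± 0.00755 of the reads in WT pre-cDC1 (SD, n = 3), 0.245% ± 0.0151 in KO pre-cDC1 (n = 3), 0.151% ± 0.0559 in WT pre-cDC2 (n = 2) and 0.201% ± 0.00141 in the libraries labelled KO pre-cDC2 (n = 2). Thus the share was higher in each KO pre-cDC1 library (0.229% to 0.259%) than in any WT one (0.162% to 0.177%), while WT pre-cDC2 held 1 library below (0.112%) and 1 close to (0.191%) the KO values of 0.200% and 0.202%.

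**Figure D1:**
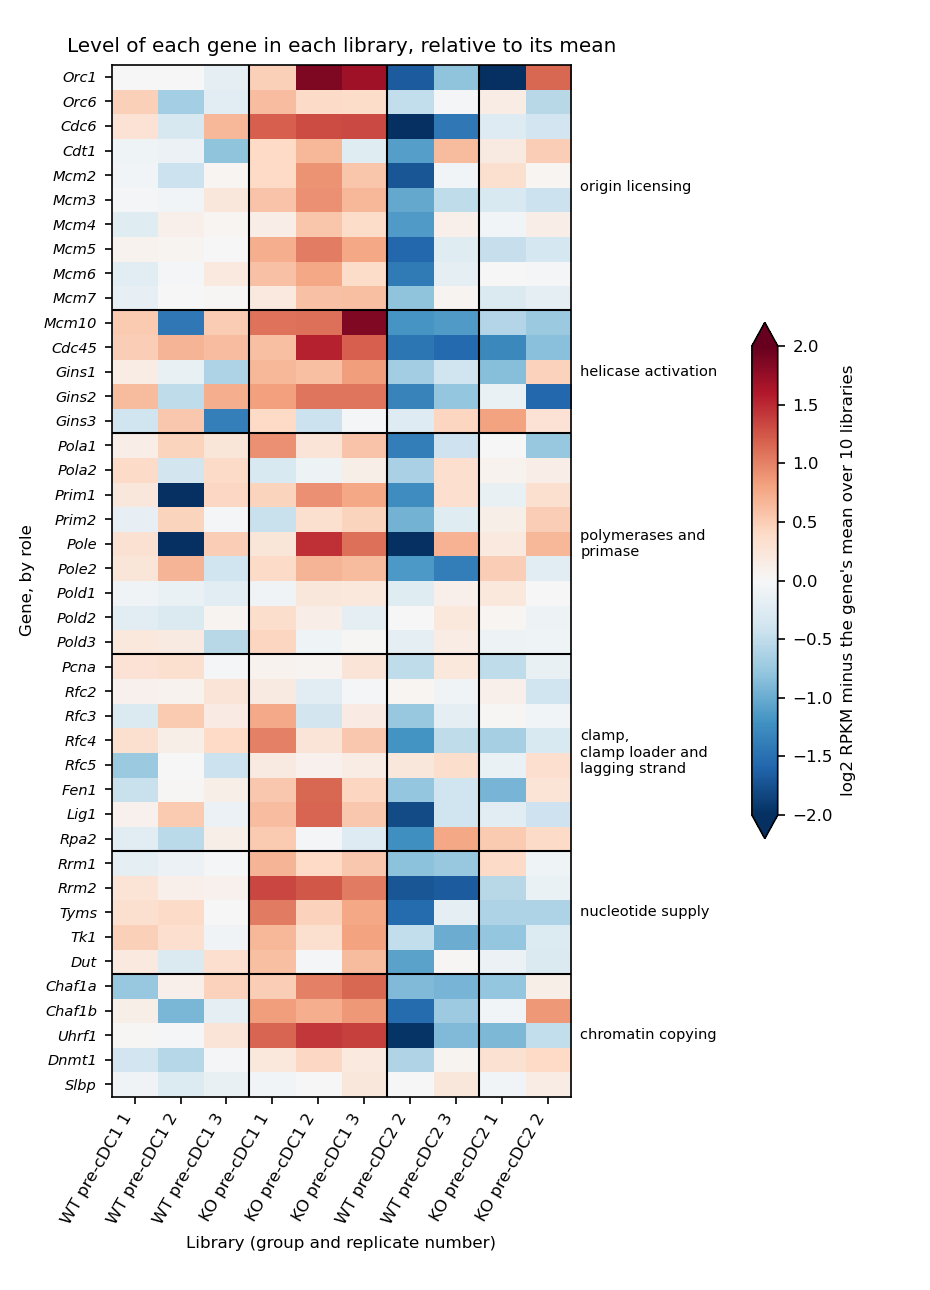
Level of each of the 42 genes (vertical axis, by role) in each of the 10 libraries (horizontal axis), as log2 RPKM minus the gene's mean over all libraries; colours end at 2 log2 units on either side. Most genes are red in the 3 KO pre-cDC1 libraries, and WT pre-cDC2 replicate 2 is the lowest of all 10 libraries for 24 of the 42 genes.

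In pre-cDC1, KO was set against WT to ask what the deletion in CD11c-expressing cells goes along with. Replication genes were higher in KO for 39 of the 42 members, with a median difference of 0.57 on the log2 scale, and none passed the test singly. Across all tested genes the median was -0.00, and 48.7% of them were higher. In limma with Benjamini-Hochberg adjustment over all tested genes, 0 members were called at an adjusted p of 0.05, where 0.0271% of all tested genes were called. At an unadjusted p of 0.05, 12 members passed and all of them were higher in KO. By the ranks of p, at least 1294 and fewer than 1336 of the 14787 tested genes passed it in either direction. In 24 members (57.1%) every KO library lay above every WT library, a pattern found in 7.88% of all tested genes, and no member had all its KO libraries below all its WT libraries. Leaving out any 1 library kept the number of higher members between 36 and 39 and the median between 0.52 and 0.59. In RNA from many cells, fewer cells of a type and less RNA per cell cannot be told apart.

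Licensing factors, which load the helicase, were higher in KO pre-cDC1 in 10 of 10 members (median difference 0.64), and 8 of them did not overlap between the groups. Mcm3, a subunit of the helicase ring, stood at 5.06, 5.05 and 5.34 log2 RPKM in the WT libraries, whereas the KO libraries had 5.67, 6.02 and 5.77. All 3 KO values lay above the WT values, by 0.67 ± 0.17 (SE, limma adjusted p = 0.219). For Mcm5, which closes the gate of the ring together with Mcm2, the levels were 4.75, 4.73 and 4.68 in WT and 5.40, 5.70 and 5.45 in KO. Its WT libraries had an SD of 0.03 and lay below all KO libraries, with a difference of 0.80 ± 0.28 (adjusted p = 0.407). Mcm4 had the largest p of this role, with 4.53, 4.87 and 4.81 in WT, 4.91, 5.32 and 5.13 in KO, and a difference of 0.38 ± 0.28 (adjusted p = 0.772). The ring's other subunits differed by 0.76 ± 0.37 (Mcm2), 0.60 ± 0.28 (Mcm6) and 0.50 ± 0.22 (Mcm7), again without overlap between the groups. Cdc6, the loading ATPase, differed by 1.06 ± 0.39 and Orc1 by 1.40 ± 0.95. Orc1 rested on 17 reads in each WT library and on 27 to 68 in KO. Cdt1, the partner of Cdc6 in loading, and Orc6, a small subunit of the recognition complex, differed by 0.61 ± 0.43 and 0.60 ± 0.32, and their groups overlapped.

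Helicase activation genes were higher in 5 of 5 members (median 0.70), with 3 that did not overlap. Mcm10, which the loaded helicase needs to start, had 0.85, -1.10 and 0.83 log2 RPKM in WT pre-cDC1 libraries, against 1.42, 1.43 and 2.18 with KO. Replicate 2 of WT was low (32 reads, against 124 and 139), and the difference was 1.48 ± 0.59 (adjusted p = 0.494). Gins1, a GINS subunit, had 1.29, 1.00 and 0.53 in WT and 1.80, 1.75 and 1.98 in KO. Its KO libraries all lay above the WT ones, by 0.90 ± 0.41 (adjusted p = 0.56). Gins3, another subunit, had 0.99, 1.93 and 0.03 in WT and 1.80, 0.97 and 1.37 in KO, so that the groups overlapped (0.40 ± 0.50, adjusted p = 0.889). Without WT replicate 3 its difference turned to -0.07. Cdc45, which completes the active helicase, differed by 0.51 ± 0.27 with overlap, and Gins2 by 0.70 ± 0.57 without.

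Among the polymerase genes 8 of 9 were higher in KO pre-cDC1, the median was 0.27, and 2 did not overlap. Prim1, the catalytic primase subunit that starts each new strand, stood at 2.23, -0.06 and 2.42 log2 RPKM in the WT libraries, against 2.44, 2.92 and 2.78 with KO. Its difference of 1.18 ± 0.65 (adjusted p = 0.646) came with 1 low WT library, replicate 2, which held 33 reads. Pole was low in the same library, with 20 reads and -2.31 log2 RPKM against 0.48 and 0.68, and its KO libraries, at 0.42, 1.64 and 1.29, overlapped with WT. Pold1, the catalytic subunit of the polymerase of the lagging strand, was even across libraries, at 4.40, 4.34 and 4.25 in WT and 4.41, 4.71 and 4.68 in KO, a difference of 0.27 ± 0.15 (adjusted p = 0.647). Prim2, the other primase subunit, had 1.28, 1.89 and 1.41 in WT and 1.00, 1.77 and 1.88 in KO. These overlapped, and the difference was 0.02 ± 0.37. Pola2, a subunit of the priming polymerase, was lower in KO (-0.22 ± 0.29), and Pola1, Pole2, Pold2 and Pold3 differed by 0.31, 0.39, 0.25 and 0.18 with overlap.

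Clamp and lagging-strand genes were higher in 6 of 8 members (median 0.31), with 3 that did not overlap. Rfc5, a subunit of the complex that opens the clamp, had 2.33, 3.06 and 2.64 log2 RPKM in WT pre-cDC1 libraries, against 3.25, 3.16 and 3.23 with KO. The KO libraries were close to each other and above WT, by 0.54 ± 0.22 (adjusted p = 0.503). Lig1, the ligase that seals Okazaki fragments, had 2.70, 3.15 and 2.50 in WT and 3.24, 3.78 and 3.16 in KO, a difference of 0.61 ± 0.36 (adjusted p = 0.682). Rfc3, a further clamp loader subunit, had 1.93, 2.75 and 2.39 in WT and 2.98, 1.86 and 2.39 in KO. Its groups overlapped, the difference was 0.06 ± 0.34, and leaving out single libraries moved it between -0.23 and 0.33. Pcna, the most abundant member, had 5.54, 5.57 and 5.21 in WT and 5.32, 5.30 and 5.50 in KO, and so was not higher (-0.07 ± 0.20). Rfc2 was lower by a similar size (-0.16 ± 0.18), while Fen1, the flap endonuclease, Rfc4 and Rpa2, a subunit that coats single-stranded DNA, differed by 0.81 ± 0.50, 0.32 ± 0.26 and 0.29 ± 0.44.

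Nucleotide supply held the member with the smallest p. Rrm2, the small subunit of ribonucleotide reductase whose amount follows S phase (chromosome 12, 24708241 to 24714146, GRCm38), had 3.64, 3.47 and 3.45 log2 RPKM in WT pre-cDC1 libraries, against 4.71, 4.61 and 4.40 with KO. Each KO library lay above each WT library, and the difference was 1.06 ± 0.17 (limma adjusted p = 0.0745). A fit with only these groups gave an adjusted p of 0.0499, and over all alternatives it ran from 0.0329 to 0.277. Rrm1, the large subunit, had 2.78, 2.86 and 2.94 in WT and 3.66, 3.37 and 3.52 in KO, likewise without overlap (0.66 ± 0.19, adjusted p = 0.279). Dut, which removes dUTP, had 3.29, 2.80 and 3.43 in WT and 3.69, 3.07 and 3.73 in KO, which overlapped (0.32 ± 0.31, adjusted p = 0.851). Tyms, which makes thymidylate, differed by 0.53 ± 0.34 without overlap, and Tk1, thymidine kinase, by 0.35 ± 0.26 with it. All 5 genes of this role were higher in KO, with a median of 0.53.

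Chromatin copying had the highest median of the 6 roles in pre-cDC1, 0.94, and all 5 members were higher without overlap. Uhrf1, which brings the maintenance DNA methyltransferase to newly copied DNA, stood at 3.28, 3.23 and 3.52 log2 RPKM in the WT libraries, against 4.42, 4.67 and 4.63 with KO. The KO libraries lay 1.23 ± 0.27 above WT (adjusted p = 0.164). Dnmt1, that methyltransferase, had 3.59, 3.40 and 3.93 in WT and 4.18, 4.39 and 4.17 in KO, a difference of 0.60 ± 0.20 (adjusted p = 0.386). Slbp, which binds histone messenger RNA, was at 3.79, 3.59 and 3.72 in WT and 3.82, 3.86 and 4.09 in KO (0.22 ± 0.15, adjusted p = 0.734). Chaf1a and Chaf1b, subunits of the chromatin assembly factor that places histones behind the fork, differed by 0.94 ± 0.37 and 1.13 ± 0.40. Without either WT pre-cDC2 library the shared spread estimate called 3 members higher in KO pre-cDC1 (Mcm5, Rrm2 and Uhrf1), and a fit with only the pre-cDC1 groups called Rrm2 and Uhrf1.

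**Figure D2:**
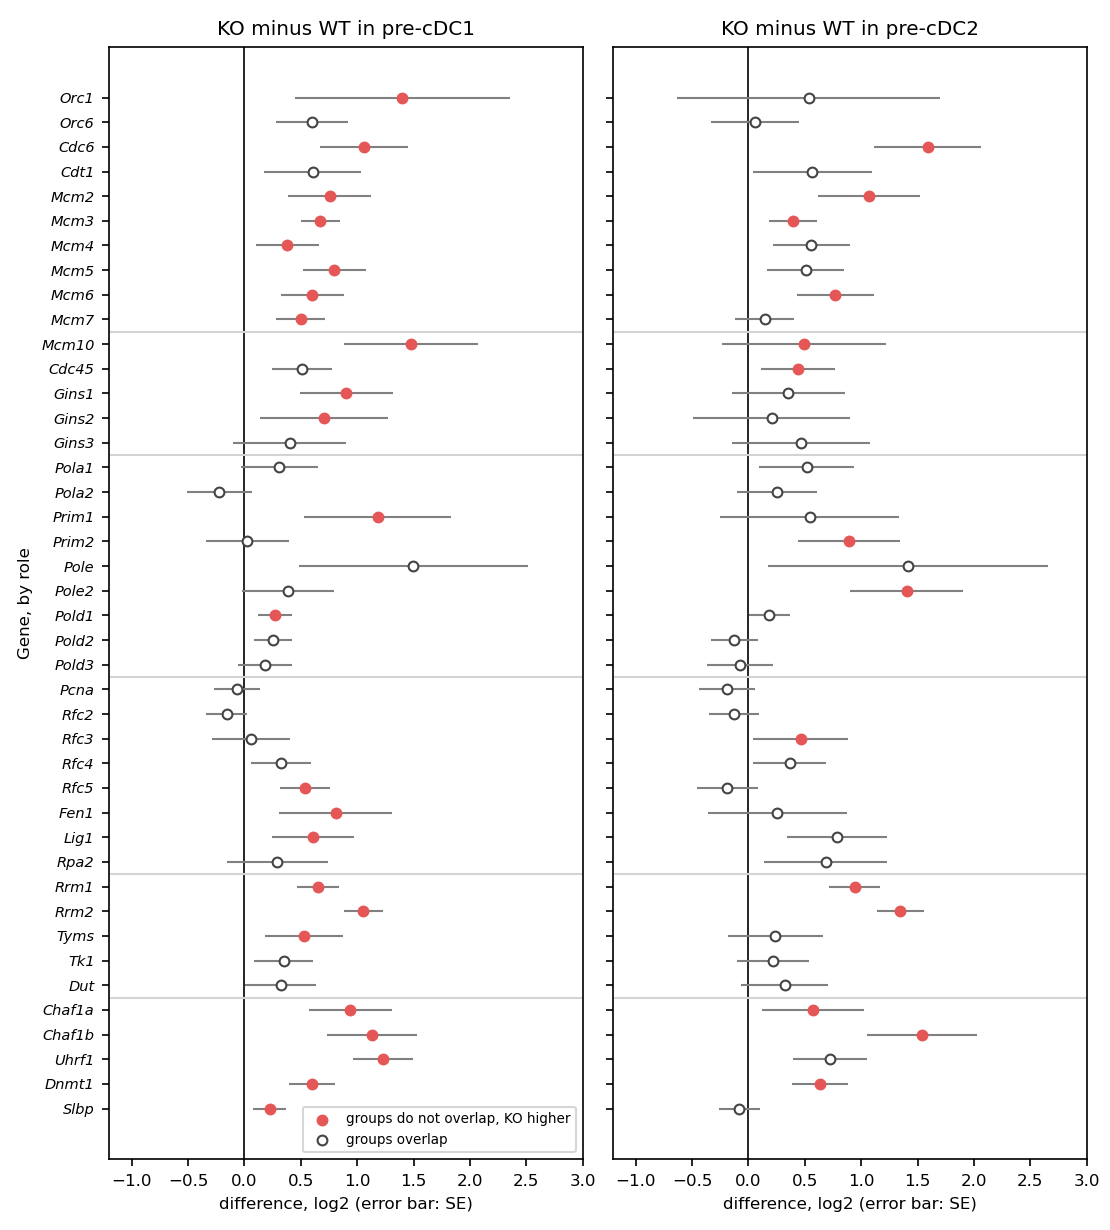
Difference KO minus WT in log2 RPKM (horizontal axis, bars are SE) for each member (vertical axis, by role) in pre-cDC1 (left, 3 against 3 libraries) and pre-cDC2 (right, 2 against 2); red points mark genes whose KO libraries all lie above the WT libraries. In pre-cDC1 39 points lie above 0 and 24 are red, and in pre-cDC2 36 lie above 0 and 14 are red.

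Transcripts of other cell types differed with the pre-cDC1 groups. The 7 red cell genes were higher in KO in 7 of 7 (summed 38.6 to 74.5 RPKM in KO, 13.6 to 22.7 in WT). Genes of the cDC2 lineage summed to 45.9 to 65.3 RPKM in KO and 203 to 227 in WT, and were lower in 8 of 8. Of the 8 NK cell genes 8 were lower (summed 2.94 to 3.56 against 13.5 to 19.6), and of the 8 T cell genes 7 (1.88 to 3.39 against 4.20 to 9.71). B cell genes summed to 5.41 to 20.8 against 86.3 to 266. Summed levels of 3 further lists did not overlap either and were lower in KO: monocyte genes (1110 to 1430 RPKM against 1830 to 2010), neutrophil genes (64.2 to 134 against 149 to 177) and plasmacytoid dendritic cell genes (59.6 to 73.5 against 87.9 to 109). Genes of the cDC1 lineage summed to more in KO (1760 to 1940 against 1570 to 1670) and were higher in 7 of 8. In the comparison no gene of these lists was called in limma, and their part in the replication result was not tested.

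Other cell cycle genes were read from lists beside the members. Of 43 other replication factors 36 were higher in KO pre-cDC1 (median 0.33), and the smallest p values were those of Cdc7, the kinase that fires origins, which differed by 1.65 ± 0.41 (adjusted p = 0.203), and Timeless, which protects the fork, by 0.83 ± 0.26 (adjusted p = 0.348). Of 39 mitosis genes 38 were higher (median 0.86) and 28 did not overlap. Nusap1, a spindle protein, stood at 1.98, 1.94 and 1.92 log2 RPKM in the WT libraries, against 2.92, 3.05 and 3.07 with KO (1.07 ± 0.22, adjusted p = 0.146), and Cdc20, which switches on the ligase that starts anaphase, differed by 0.86 ± 0.18 (adjusted p = 0.151). Other nucleotide enzymes were nearer to all tested genes, with 18 of 30 higher and a median of 0.09. The smallest p values there were those of Dctpp1, a pyrophosphatase that clears modified nucleotides (0.62 ± 0.24), and Ctps, CTP synthase (0.61 ± 0.28). E2F and RB factors were higher in 13 of 18 (median 0.12), with Lin54 at 0.98 ± 0.32 and Tfdp1, the DNA-binding partner of E2F proteins, at 0.81 ± 0.29. Regulators of G1 and CDK inhibitors went the other way in 12 of 16 (median -0.19), with Cdkn1a, the inhibitor p21, at -1.04 ± 0.43 (adjusted p = 0.503), whereas Ccne2, a cyclin of S phase entry, was at 1.47 ± 0.45 (adjusted p = 0.329). No gene of these lists was called.

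Promoter sequences were compared because most members lay in the same direction in pre-cDC1 and many of them are known E2F targets. In RefSeq promoters of GRCm38.p6, found for 36 of the 42 members, the 250 bases before the start were searched on both strands for the E2F letters TTTCCCGC, TTTGGCGC, TTTCGCGC and TTTGCCGC, which can overlap each other. They were present in 10 of the 36 members (27.8%) and in 583 of all 27025 genes (2.2%), against 1 of 31 genes of the mitosis list (3.2%). CCAAT was found in 61.1% of the members and 37.5% of all genes, the GC box GGGCGG in 69.4% and 35.4%, and TTTGAA, the core of the CHR element of mitotic genes, in 16.7% and 18.3%, with 32.3% in the mitosis list. With the 50 bases after the start included, the E2F letters were in 16 of 36 members (44.4%), 2.6% of all genes and 6.5% of the mitosis list, and TTTGAA was in 16.7%, 20.2% and 77.4%. Licensing genes carried the E2F letters most often (5 of 9), and none of the 5 nucleotide supply genes did. A match is a description and not a measured site. The stretches shown are from Uhrf1 (chr17:56304063-56304312, plus strand, the downstream of its 2 starts), Mcm5 (chr8:75109259-75109508, plus strand), Cdc6 (chr11:98907982-98908150, plus strand, cut to begin after an annotated exon) and Mcm6 (chr1:128359706-128359955, minus strand), with the E2F letters in capitals, and from Rrm2 (chr12:24708004-24708240, plus strand), whose window holds none. Apart from Rrm2, they are those of the members with the smallest p in pre-cDC1 whose letters lie outside annotated exons. Pola1, with a larger p, also held such letters, 138 bases before the start. Its WT and KO pre-cDC1 libraries overlapped, and its stretch is not shown. Rrm2 was added after its values were seen.
Uhrf1: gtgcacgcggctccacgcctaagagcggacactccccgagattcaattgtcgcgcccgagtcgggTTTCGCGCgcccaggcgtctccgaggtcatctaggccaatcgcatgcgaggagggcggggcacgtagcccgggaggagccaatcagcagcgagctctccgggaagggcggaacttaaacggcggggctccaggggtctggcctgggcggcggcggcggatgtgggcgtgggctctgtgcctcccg
Mcm5: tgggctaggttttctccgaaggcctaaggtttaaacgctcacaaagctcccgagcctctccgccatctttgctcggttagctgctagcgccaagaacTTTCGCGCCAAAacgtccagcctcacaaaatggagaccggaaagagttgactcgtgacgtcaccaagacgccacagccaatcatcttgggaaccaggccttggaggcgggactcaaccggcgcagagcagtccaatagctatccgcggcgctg
Cdc6: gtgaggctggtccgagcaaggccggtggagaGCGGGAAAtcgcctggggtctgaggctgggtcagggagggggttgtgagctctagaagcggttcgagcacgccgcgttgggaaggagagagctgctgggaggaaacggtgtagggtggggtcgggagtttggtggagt
Mcm6: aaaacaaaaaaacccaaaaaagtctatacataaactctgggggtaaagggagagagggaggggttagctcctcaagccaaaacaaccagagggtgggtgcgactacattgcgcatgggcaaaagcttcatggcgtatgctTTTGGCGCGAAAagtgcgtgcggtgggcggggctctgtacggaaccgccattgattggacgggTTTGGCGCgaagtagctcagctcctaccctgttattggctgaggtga
Rrm2: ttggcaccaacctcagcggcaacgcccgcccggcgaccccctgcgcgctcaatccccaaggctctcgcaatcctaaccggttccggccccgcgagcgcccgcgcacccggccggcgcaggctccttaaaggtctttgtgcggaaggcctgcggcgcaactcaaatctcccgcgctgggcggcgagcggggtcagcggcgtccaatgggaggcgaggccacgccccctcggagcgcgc
In Mcm5 the capitals hold overlapping matches on opposite strands, and in Mcm6 the first run does so and a further match lies nearer the start. Rrm2, with the smallest p of the members and no such letters, and Mcm5, with them, both lay without overlap between WT and KO pre-cDC1.

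In pre-cDC2 the genotype comparison rested on 2 libraries a group. Members were higher in the libraries labelled KO for 36 of 42 genes, with a median difference of 0.48 against 0.01 over all tested genes, of which 50.7% were higher. Limma called 0 members, where 0.0676% of all tested genes were called, and 8 members, all higher, passed an unadjusted p of 0.05. By the ranks of p, at least 426 and fewer than 1129 of the 14787 tested genes passed it in either direction. In 14 members (33.3%) both libraries labelled KO lay above both WT libraries, against 15.6% of all tested genes. WT replicate 2 was the lowest of the 4 pre-cDC2 libraries for 28 members, and WT replicate 3 reached or passed the lower KO library for 27. Without replicate 2, 24 members were higher and the median was 0.05, against 0 over all tested genes. Without replicate 3, 38 were higher and the median was 0.84, again against 0. Replicate 2 was also the library with low T and NK cell transcripts and the highest sums of dendritic cell genes. Its red cell genes summed to 5.37 RPKM, like the 5.75 of replicate 3 and below the 29.7 and 62.7 of the libraries labelled KO. The T and NK cell genes were higher in the KO means in 8 of 8 each, with replicate 2 low in WT. In WT replicate 3 the T cell genes summed to 927 RPKM, above the 633 and 569 of the libraries labelled KO. Its NK cell genes summed to 1010, above 968 and 849. The red cell genes were higher in the KO means in 7 of 7, of which limma called 2. The part of these transcripts in the result was not tested.

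Rrm2 was the pre-cDC2 member with the smallest p. It had 1.65 and 1.70 log2 RPKM in the WT libraries and 2.81 and 3.23 in those labelled KO, where WT replicates 2 and 3 were nearly equal and both below KO. The difference was 1.35 ± 0.21 (SE, limma adjusted p = 0.0837), and 1.32 without WT replicate 2. Over the alternatives its adjusted p ran from 0.0148 to 0.919. Rrm1, the other reductase subunit, had 2.15 and 2.22 in WT and 3.36 and 2.89 in KO, again apart (0.94 ± 0.23, adjusted p = 0.4). Cdc6 had -1.24 and -0.30 in WT and 0.88 and 0.76 in KO (1.59 ± 0.47, adjusted p = 0.51). Chaf1b had -0.07 and 0.74 in WT and 1.42 and 2.33 in KO (1.54 ± 0.49, adjusted p = 0.552). For both genes the WT libraries lay apart from each other and below both KO libraries. Dnmt1, the methyltransferase, was at 3.36 and 4.02 in WT and 4.28 and 4.37 in KO (0.64 ± 0.25), while Uhrf1, its recruiter, overlapped (1.30 and 2.38 in WT, 2.36 and 2.77 in KO). Mcm5 overlapped as well, with 3.10 and 4.43 against 4.22 and 4.32, and its WT replicate 2 was the lowest of all. By role the medians were 0.55 for licensing, 0.44 for helicase activation, 0.52 for polymerases, 0.31 for clamp and lagging strand, 0.32 for nucleotide supply and 0.64 for chromatin copying. The 6 members that were lower were Pold2, Pold3, Pcna, Rfc2, Rfc5 and Slbp, with differences from -0.19 to -0.07.

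**Figure D3:**
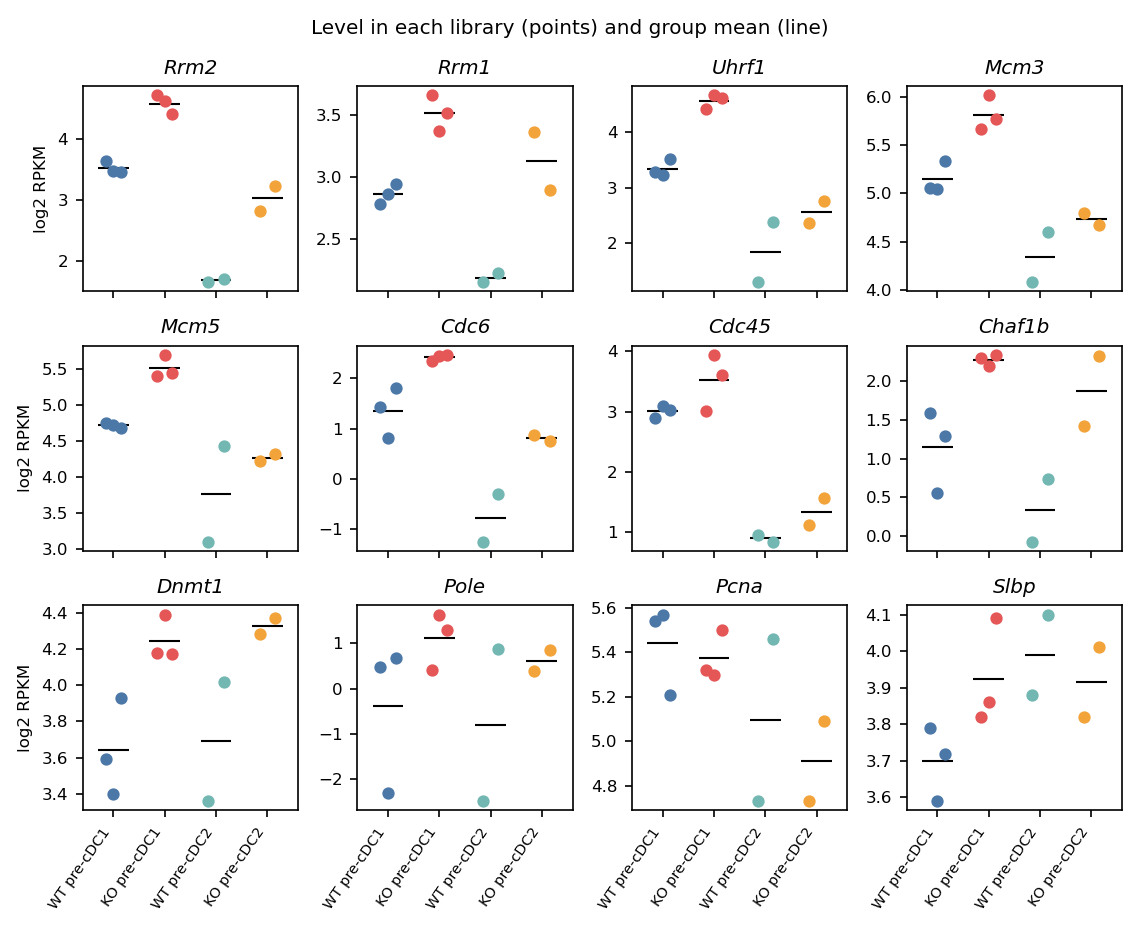
Log2 RPKM (vertical axis) of 12 members in each library (points) of the 4 groups (horizontal axis), with the group mean as a line; the scale differs between panels. Rrm2 and Rrm1 are higher in KO than in WT in every library of both cell types, while Pcna overlaps between the genotypes.

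Among the lists read beside the members in pre-cDC2, mitosis genes were higher in the libraries labelled KO in 32 of 39 (median 0.85), with Tpx2, a spindle assembly factor, at 1.58 ± 0.31 (adjusted p = 0.219) and Nusap1 at 1.08 ± 0.27 (adjusted p = 0.412). Other replication factors were higher in 33 of 43 (median 0.22), with Asf1b, a histone chaperone, at 1.04 ± 0.36 and Hells, a chromatin remodeller, at 1.01 ± 0.39. For other nucleotide enzymes the count was 21 of 30 (median 0.18), with Dck, deoxycytidine kinase, at -0.46 ± 0.18 and Nme1, a nucleoside diphosphate kinase, at 1.10 ± 0.46. E2F and RB factors gave 12 of 18 (median 0.18), with Foxm1, a transcription factor of mitotic genes, at 1.76 ± 0.58 and E2f2 at 1.06 ± 0.49. G1 regulators gave 5 of 16 (median -0.08), with Cdkn2c, an inhibitor of CDK4 and CDK6, at -1.16 ± 0.41 and Ccng2 at -0.74 ± 0.35. None of these genes was called.

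Averaged over both cell types, 40 of 42 members were higher in KO (median 0.48, against -0.01 over all tested genes), and 1 was called, where 0.108% of all tested genes were. This was Rrm2, which rose by 1.20 ± 0.14 (SE, limma adjusted p = 0.0194) and was higher in each KO library than in every WT library of its cell type. The call held without either WT pre-cDC2 library (adjusted p = 0.0238 and 0.00422) and was lost when any other single library was left out (0.0513 to 0.092). It was also lost with the replicate number as a block (0.149) and with voom on recovered reads (0.069). The next members by p were Rrm1 (0.80 ± 0.15, adjusted p = 0.0899), Uhrf1 (0.98 ± 0.21, 0.126) and Cdc6 (1.33 ± 0.31, 0.142). Pcna and Rfc2 were lower, by -0.13 ± 0.16 and -0.15 ± 0.14. Without WT pre-cDC2 replicate 2 the median was 0.32 (-0.015 over all tested genes), and without replicate 3 it was 0.68 (-0.002). Of the other lists, 38 of 39 mitosis genes were higher (median 0.86), with Nusap1 at 1.08 ± 0.17 (adjusted p = 0.0745) and Top2a, the topoisomerase of chromosome segregation, at 1.00 ± 0.17 (adjusted p = 0.0793), and no gene of these cell cycle lists was called. Red cell genes were higher in 7 of 7, and limma called 3 of them (smallest adjusted p = 0.0194). Their part in the averaged result was not tested.

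Whether the genotype difference itself differed between the cell types was tested as an interaction. Limma called 0 members, where 0.0203% of all tested genes were called. An unadjusted p under 0.05 was found for 0 members and, by the ranks of p, for at least 692 of the 14787 tested genes. The smallest adjusted p was 0.987. The members with the smallest p were Rfc5, whose difference was 0.54 in pre-cDC1 and -0.19 in pre-cDC2 (interaction -0.73 ± 0.35), Pole2, a subunit of the leading-strand polymerase, with 0.39 and 1.41 (1.02 ± 0.65), Prim2 with 0.02 and 0.89 (0.87 ± 0.58) and Pold2 with 0.25 and -0.13 (-0.38 ± 0.27). The standard error of the interaction ran from 0.23 (Slbp) to 1.61 (Pole) over the members. In direction, 35 of the 42 members were higher in KO in both cell types, against 28.3% of all tested genes. In 10 members the genotypes did not overlap in either cell type, against 2.49% of all tested genes: Cdc6, Chaf1a, Chaf1b, Dnmt1, Mcm10, Mcm2, Mcm3, Mcm6, Rrm1 and Rrm2.

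Between the cell types several members passed the test. In WT, 33 of 42 members were lower in pre-cDC2 than in pre-cDC1 (median -0.64, against 0.06 over all tested genes). Of the 42, 6 passed the test (14.3%), close to the 11.5% of all tested genes that were called, and all 6 were lower: Cdc45, Cdc6, Mcm3, Rfc4, Rrm2 and Uhrf1. In 18 members (42.9%) both pre-cDC2 libraries lay below all pre-cDC1 libraries, against 18.5% of all tested genes. Rrm2 had 3.64, 3.47 and 3.45 log2 RPKM in WT pre-cDC1 and 1.65 and 1.70 in WT pre-cDC2. It was lower by far more than the spread of either group, with a difference of -1.84 ± 0.19 (limma adjusted p = 0.000443). Cdc45 had 2.90, 3.09 and 3.03 in pre-cDC1 and 0.96 and 0.85 in pre-cDC2 (-2.10 ± 0.30, adjusted p = 0.00264). Uhrf1 (-1.51 ± 0.30, adjusted p = 0.0124), Cdc6 (-2.12 ± 0.43, 0.0139), Mcm3 (-0.81 ± 0.19, 0.0253) and Rfc4 (-1.13 ± 0.30, 0.0377) followed, each without overlap. With genotype and replicate number as a block 0 of the 6 calls were left, and 2 members were called with no filter or in a fit with only the WT groups. Without WT pre-cDC2 replicate 2 the median was -0.25 (0.07 over all tested genes), with Rrm2 at -1.82 and Cdc45 at -2.15. Without replicate 3 the median was -1.02 (0.03 over all tested genes).

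In KO, 36 of 42 members were lower in pre-cDC2 (median -0.60, against 0.09 over all tested genes). The 9 that passed the test (21.4%, with 20.8% of all tested genes called) were all lower, and 25 members (59.5%) did not overlap in that direction, against 23.1% of all tested genes. Rrm2 had 4.71, 4.61 and 4.40 log2 RPKM in KO pre-cDC1 and 2.81 and 3.23 in the libraries labelled KO pre-cDC2, which lay apart by -1.55 ± 0.19 (limma adjusted p = 0.000671). Cdc45 had 3.01, 3.94 and 3.61 against 1.12 and 1.57 (-2.17 ± 0.30, adjusted p = 0.00115). Uhrf1 had 4.42, 4.67 and 4.63 against 2.36 and 2.77 (-2.01 ± 0.30, adjusted p = 0.00167). Mcm3 had 5.67, 6.02 and 5.77 against 4.80 and 4.67 (-1.09 ± 0.19, adjusted p = 0.00392). Mcm5 (-1.25 ± 0.31), Tk1 (-1.12 ± 0.29) and Tyms (-1.38 ± 0.39) passed in KO, besides the 6 that passed in WT, which make up 100% of the WT calls and 66.7% of the KO calls. In KO 4 members were called with genotype and number as a block or with no filter, 4 without KO pre-cDC2 replicate 1, and 5 without KO pre-cDC1 replicate 1 or replicate 3. Pre-cDC2 libraries held more T and NK cell transcripts than pre-cDC1 libraries (T cell genes 45.5 to 927 RPKM against 1.88 to 9.71, NK cell genes 44.2 to 1010 against 2.94 to 19.6). B cell genes overlapped between the cell types in WT (107 to 1170 RPKM in pre-cDC2, 86.3 to 266 in pre-cDC1). In KO they summed to more in pre-cDC2 (636 to 695 against 5.41 to 20.8). The part of these transcripts in the cell type result was not tested. Scaled to total recovered reads, in place of the authors' factors, the median of all tested genes was 0.27 in WT and 0.35 in KO, and the members' medians were -0.43 and -0.34, still lower.

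**Figure D4:**
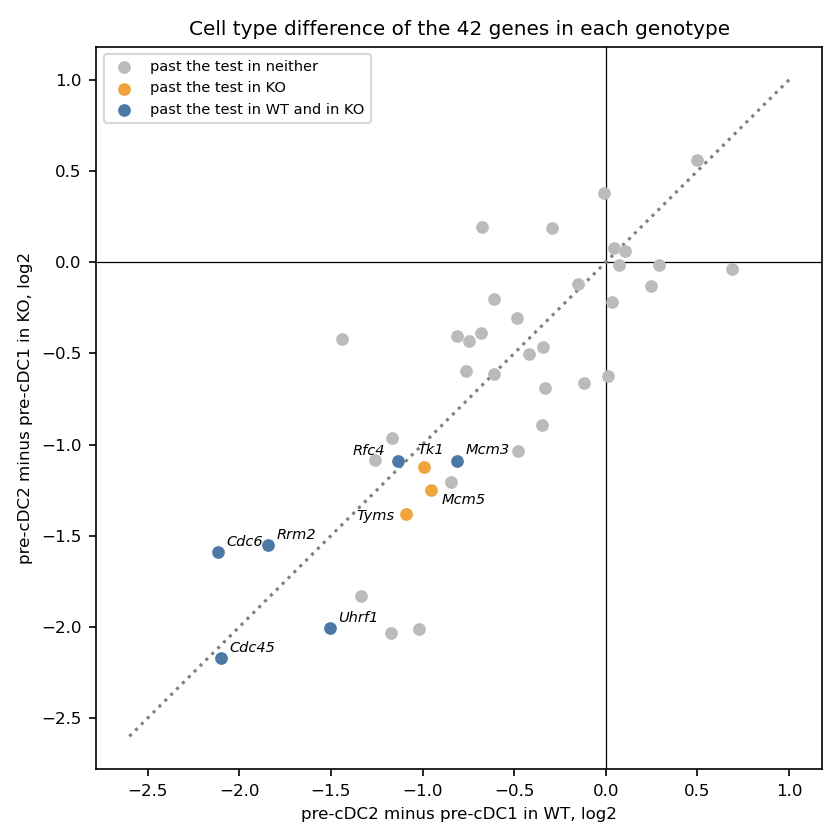
Difference pre-cDC2 minus pre-cDC1 in log2 RPKM for each member in WT (horizontal axis, 2 against 3 libraries) and in KO (vertical axis, 2 against 3); the dotted line marks equal differences, and colours mark the genes past the limma test. The 6 genes past the test in both genotypes lie between -2.17 and -0.81 on both axes.

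By role, polymerase genes were lower in 5 of 9 members in WT and 7 of 9 in KO (medians -0.29 and -0.22), and none was called. Pold1 was close between them, with 4.24 and 4.57 log2 RPKM in WT pre-cDC2 against 4.25 to 4.40 in WT pre-cDC1 (0.07 ± 0.17). Dnmt1 differed by 0.05 ± 0.23 in WT and 0.08 ± 0.23 in KO, while Uhrf1, its recruiter, was among the genes called. The nucleotide supply genes were lower in 5 of 5 in each genotype, with medians of -0.99 in WT and -1.12 in KO. Among the E2F and RB factors, E2f2 fell by 3.55 on the log2 scale from WT pre-cDC1 to WT pre-cDC2 (SE 0.45, adjusted p = 0.00136) and E2f1 fell by 1.49 (SE 0.29, adjusted p = 0.0108). In KO they fell by 2.50 and 1.72 (adjusted p = 0.00428 and 0.00301). Between the genotypes in pre-cDC1, E2f1 stood at 2.70, 2.48 and 3.23 in WT and 2.85, 2.89 and 2.53 in KO, which overlap (-0.04 ± 0.26).

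The lists read beside the members gave calls in both directions between the cell types. Set against the 11.5% of all tested genes called in WT and 20.8% in KO, the called share was 4.65% and 11.6% for other replication factors, 1 of 30 and 3 of 30 for other nucleotide enzymes, 16.7% and 27.8% for E2F and RB factors, 25.6% and 38.5% for mitosis genes, and 25.0% and 37.5% for G1 regulators. The first 2 lists thus held fewer calls than the background in both genotypes. Of 39 mitosis genes 9 fell and 1 rose in WT pre-cDC2, and 14 fell and 1 rose in KO. Tpx2 fell by 1.80 in WT, Kif23, a motor of cell division, fell by 2.33 in KO, and Racgap1, a regulator of cytokinesis, rose by 1.62 in WT and 1.59 in KO. Among other replication factors 2 fell in WT, Hells and Dna2 (a nuclease of Okazaki fragment processing), by 2.09 and 1.90 on the log2 scale. In KO 4 fell and 1 rose, with Dna2 at -2.50 and Timeless at -1.60. Of the other nucleotide enzymes 1 rose in WT (Ctps2, a CTP synthase, by 1.16), and in KO 2 rose (Ctps2 by 1.21 and Impdh1, of guanine nucleotide synthesis, by 3.73) and 1 fell. G1 regulators gave 3 rises and 1 fall in WT and 3 rises and 3 falls in KO, led by Cdkn2d, an inhibitor of CDK4 and CDK6 (2.17 and 2.72), and Ccnd3, cyclin D3 (0.67 and 0.84).

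Exons of 15 members overlap another annotated gene, 12 of them a protein-coding one. The longest overlaps were those of Gins2 with Gse1 (2758 bases), Chaf1a with Ubxn6 (2542 bases) and Fen1 with the antisense gene Gm10143 (1909 bases). SMARTSeq v2 does not mark strand, so reads of such pairs cannot be told apart in the overlap. Pcna and Tyms further have annotated pseudogenes (Pcna-ps1, Pcna-ps2 and Tyms-ps) that could share their reads.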

How the data were processed

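RNA of 10 libraries was measured by sequencing. Per the labels' protocols, 2 ng of RNA isolated with PicoPure was amplified by SMARTSeq v2. Per the submitters' processing notes, the tools were STAR 2.3, featureCounts 1.5.0, R 3.3.3 and edgeR, with GRCm38 (mm10); version of edgeR, annotation release and strand setting: not given in the sources used here. The authors deposited log2 RPKM values for 52550 genes. Whole reads within 0.001 were recovered for 52546 genes with GENCODE mouse release 21 lengths or a length search, giving each library's depth. PCR reads without molecular identifiers make depth a measure of counting error only.

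Limma 3.58.1 in R 4.3.3 fitted the 4 group means to the deposited log2 RPKM of 14787 genes (above 0 in at least 2 libraries) with a trended eBayes step, 6 residual and 3.31 prior degrees of freedom. No further pseudocount was added. Tests were two-sided, adjusted by Benjamini and Hochberg over all tested genes, with 0.05 as the threshold. Groups do not overlap where all libraries of one lie above all of the other. Members given in full were, per role in pre-cDC1, the 2 with the smallest and the 1 with the largest p, and the 4 with the smallest p in each other comparison; of each other list, the 2 with the smallest p. Members and lists were chosen with earlier results of these data known. Genes named beyond this rule, such as Pcna and Pole, were chosen after their values were seen. Alternatives were other filters, an added 1 RPKM, other normalizations, other fits, replicate blocks, voom, and leaving out each library; scaling to total recovered reads, and applying the alternatives to counts of higher and non-overlapping members, were added after the data were seen. The procedure was tested on simulated data. Single values of some marker genes are not reported here.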

Additional observations from a re-analysis of the deposited data

How the results depend on the processing

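The count of members called in pre-cDC1 was 2 in a fit with only the compared groups and 0 to 3 when single libraries were left out. In pre-cDC2 it was 1 with no filter and 0 to 9 without single libraries, with medians of 0.05 to 0.84. Averaged over the cell types it was 0 with voom and 0 to 14 without single libraries (medians 0.32 to 0.68). Between the cell types in WT, 2 members were called with no filter or with only the compared groups, 10 with centred library medians and 4 to 14 without single libraries (medians -1.02 to -0.25), and the median was -0.48 with 1 RPKM added and -0.43 with scaling to total reads. In KO, 4 were called with no filter, 14 with quantile normalization or centred medians (median -0.80 with the latter), 5 with scaling to total reads (median -0.34) and 4 to 12 without single libraries. The interaction median ran from -0.46 to 0.32 without single libraries. When single libraries were left out, the difference changed sign for 4 members in pre-cDC1, namely Pold3, Rfc3 (-0.23 to 0.33), Prim2 (-0.14 to 0.30) and Gins3 (-0.07 to 0.87), and for 21 in pre-cDC2, 12 of them without WT replicate 2. Between the cell types it did so for 13 in WT and 8 in KO. The cause was not tested. Without 1 of its libraries, a pre-cDC2 group has 1 sample, assumed to vary like the other groups. Counts of members called in the alternatives, here and above, are given without the share of all tested genes called in the same fit.

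With the replicate number as a replicate block, 0 members were called in the averaged comparison. With genotype and number as a replicate block, 0 members were called between the cell types in WT and 4 in KO. Deviations from the group means correlated at -0.03 to 0.031 across genes for libraries with the same number. For libraries with different numbers they correlated at -0.032 to 0.032. In a group of 2 libraries the deviations mirror each other, so this check cannot decide whether libraries with the same number are paired. Groups of 2 and 3 libraries limit precision, as do the 10 member values under 20 reads.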
